A study of Bos taurus with 5 samples.

Results

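Placental growth factor (PGF, named PlGF in the study), thrombospondin 2 (THBS2, named TSP2 in the study) and the endothelial receptor tyrosine kinases TEK and TIE1 were examined as a small set of genes that act on blood vessel growth in the wall of bovine ovarian follicles. Each of the 4 genes had 1 probe, found by its RefSeq mRNA accession on the array (NM_173950 for PGF, NM_176872 for THBS2, NM_173964 for TEK and NM_173965 for TIE1), so the set held 4 of 10163 probes. PGF, TEK and TIE1 were named through the RefSeq gene table, and THBS2 by the accession used for TSP2 in the study. PGF and THBS2 both belong to gene lists that the study chose from these same arrays for large differences, so the direction of their difference on the arrays is not independent evidence. The study also measured both by quantitative PCR in all follicles it collected, and reported PGF greater in F1 and THBS2 greater in F2. It located their mRNA by in situ hybridization in separate follicles. Those measurements were not examined here.

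Total RNA came from the wall (granulosa cells plus theca interna) of 3 largest follicles (F1) and 2 second-largest follicles (F2) of pregnant Japanese Black cows, with stroma and theca externa dissected away. Each follicle was hybridized to an array of its own with Cy3 as the only dye. Some cows contributed a follicle to each group according to the methods, and all F1 but not all F2 collected were put on arrays. By the numbers collected, an F2 or both F2 share a cow with an F1, and the labels do not say which.

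The granulosa layer of a follicle holds no vessels, and growth of the follicle depends on the capillary network of the theca around it. PGF is a secreted ligand of the vascular endothelial growth factor family that binds the receptor FLT1 and favours vessel growth. THBS2 is a secreted matrix glycoprotein that inhibits vessel growth and can trigger endothelial cell death. TEK (also called TIE2) is the receptor of the angiopoietins on endothelial cells, and TIE1 is its close relative, which modulates TEK signalling. The comparison of F1 with F2 asks whether transcripts that favour and oppose vessel growth differ between follicles of different developmental status.

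The probes were oligonucleotides of 60 bases. A stretch of 30 bases of each is shown because the signals below are the hybridization to these sequences; their place in the transcript was not determined. Capitals mark the hexamer AATAAA, the usual polyadenylation signal, searched on both strands.
PGF: cagattctcttgAATAAAgtattctagtct
THBS2: gctgtgctgcactttttacgtttttcggtg
TEK: atatagtaagtgAATAAAtgtcttgcctac
TIE1: tttaacttaaggAATAAAaatggggatcca
The stretches are bases 26 to 55 of the PGF probe, 31 to 60 of the THBS2 probe, 30 to 59 of the TEK probe and 11 to 40 of the TIE1 probe. AATAAA was found as written in the PGF, TEK and TIE1 probes and on neither strand of the THBS2 probe. Over all probes, 8.88% held it as written and 3.99% on the other strand. The GC content was 45% for PGF, 43.3% for THBS2, 35% for TEK and 46.7% for TIE1, against a median of 43.3% over all probes. The longest run of bases that any of the 4 shared with another probe of the array was 14.

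Signals below are the processed signal of the spot divided by the median of the 100 spots of glyceraldehyde-3-phosphate dehydrogenase (GAPDH), a housekeeping enzyme, on the same array, which is the scaling of the study. The GAPDH median ranged from 868.7 to 1411.2 among the 5 arrays. On each of the 5 arrays all 4 probes rose well above background, and none was saturated. For scale, the brightest of the 79 negative control spots reached between 0.0171 and 0.03 of the GAPDH median. Signals of different probes are not comparable as amounts of mRNA, since probes differ in brightness. The F1 to F2 difference was tested by limma across 5528 probes, of which 634 (11.5%) had an adjusted p under 0.05, 353 (6.39%) with greater signal in F1 and 281 (5.08%) with greater signal in F2. The median difference of all tested probes was 0.27 on the log2 scale in favour of F1, and this was 0.06 when arrays were scaled to their 75th percentile, so small differences should be read against that shift.

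PGF was greater in the F1. Its signal was 0.484, 0.536 and 1.29 for F1 replicates 1 to 3, against 0.0601 and 0.129 for F2 replicates 1 and 2. The groups did not overlap, and the lowest F1 was 3.76 times the highest F2. Such separation in favour of F1 was found in 33.4% of all tested probes. F1 replicate 3 stood above the other F1, at 2.66 times the lowest of them, and 88.4% of tested probes had a smaller range among the F1. The log2 difference F1 minus F2 was 2.98 (standard error 0.55), or 7.89-fold, with a 95% interval from 3.16- to 19.7-fold (limma adjusted p = 0.0208). Among the 5528 probes, 112 exceeded PGF in their difference in favour of F1.

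The error that the scanner software gave for the PGF spot was between 10% and 16.4% of its signal, so the gap between F1 replicate 3 and the other F1 was larger than the spot error. Leaving out F2 replicate 1 raised the limma adjusted p to 0.253, and leaving out F2 replicate 2 raised it to 0.095. It was 0.155 when all 10163 probes were tested without a filter.

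THBS2 was greater in the F2, in the opposite direction to PGF. Its signal was 6.64 and 7.92 for F2 replicates 1 and 2, against 0.206, 0.35 and 0.14 for F1 replicates 1 to 3. The lowest F2 was 19 times the highest F1, and separation in favour of F2 was found in 15.7% of all tested probes. The F2 differed from each other by 1.19-fold and the F1 by 2.51-fold. The log2 difference F1 minus F2 was -5.07 (standard error 0.43), which is 33.6-fold greater in the F2 with a 95% interval from 16.4- to 68.7-fold (limma adjusted p = 0.00116). Only 49 of the 5528 probes had a larger difference in favour of F2. Leaving out F2 replicate 1 raised the limma adjusted p to 0.0675.

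**Figure D1:**
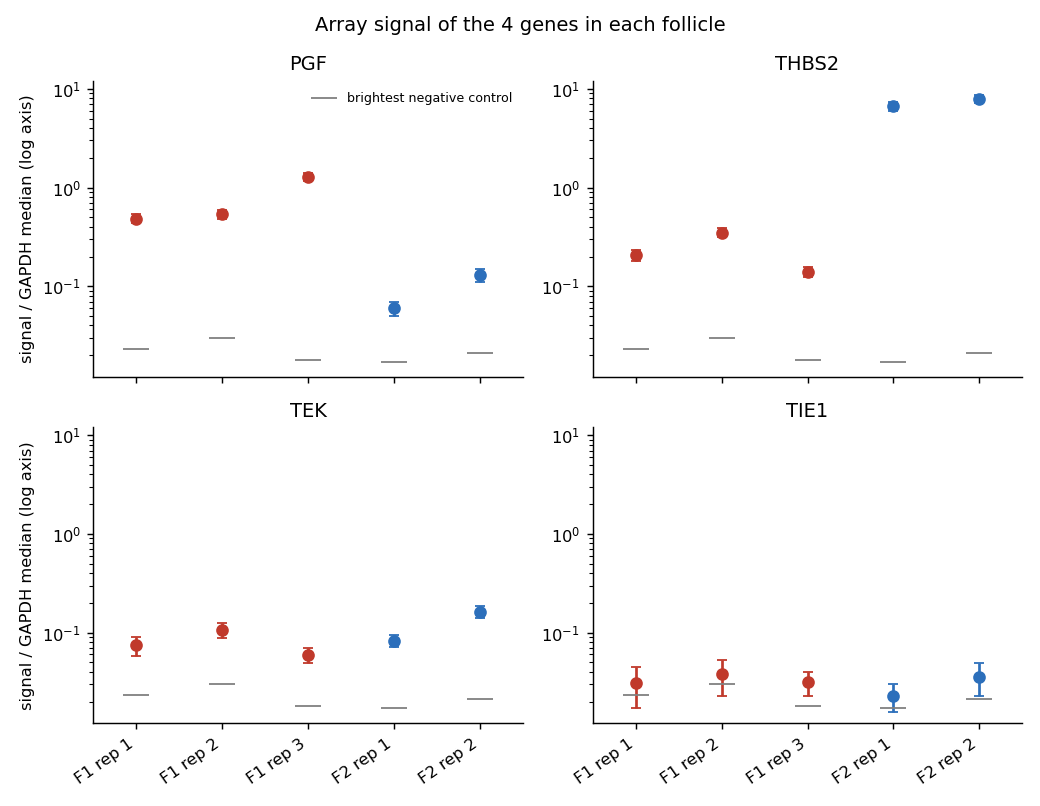
Signal of PGF, THBS2, TEK and TIE1 relative to the GAPDH median (log axis) in each of the 3 F1 (red) and 2 F2 (blue). Bars are the scanner software's error of the spot, and grey dashes are the brightest negative control of the array. PGF lies higher in every F1 and THBS2 in both F2, TEK and TIE1 overlap between the groups, and TIE1 lies close to the negative controls.

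The PGF to THBS2 ratio was formed on each array, which removes the GAPDH scaling. Its absolute size depends on the brightness of each probe, so it is read only across follicles. The ratio was 2.34, 1.53 and 9.23 for F1 replicates 1 to 3, against 0.00906 and 0.0162 for F2 replicates 1 and 2. F1 replicate 3 held both the highest PGF and the lowest THBS2 signal and therefore the highest ratio, 6.02 times that of F1 replicate 2. Even so, the lowest F1 ratio was 94.3 times the highest F2 ratio. The mean log2 ratio was 1.68 ± 1.35 (SD, n = 3) for F1 against -6.36 ± 0.60 (SD, n = 2) for F2, a difference of 8.05, or 265-fold. No p is given for this ratio, since both genes were chosen with their values on these arrays known.

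TEK and TIE1 gave no difference that passed the test. The TEK signal was 0.0749, 0.107 and 0.0591 for F1 replicates 1 to 3, against 0.0825 and 0.162 for F2 replicates 1 and 2. The highest value was that of F2 replicate 2, while F2 replicate 1 fell within the F1. The log2 difference F1 minus F2 was -0.57 (standard error 0.42, limma adjusted p = 0.398), and the 95% interval ran from 0.739- to 2.99-fold for F2 over F1. A change of TEK of up to 2.99-fold in favour of F2 is therefore within the error of these arrays.

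The TIE1 signal was 0.031, 0.0382 and 0.0313 for F1 replicates 1 to 3, against 0.023 and 0.0357 for F2 replicates 1 and 2. All 5 values lay within 1.66-fold of each other, and the F2 spanned the F1 values on both sides except for F1 replicate 2. The log2 difference was 0.22 (standard error 0.31, limma adjusted p = 0.676), with a 95% interval from 0.689- to 1.96-fold for F1 over F2. The direction of this small difference turned without F2 replicate 1, where it was -0.10. TIE1 was dim, at 1.27 to 1.74 times the brightest negative control of its array, and its spot error was 26.4% to 44.6% of the signal. For TEK the spot error was 13.7% to 21.8%.

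The TEK to TIE1 ratio was 2.42, 2.8 and 1.89 for F1 replicates 1 to 3, against 3.58 and 4.54 for the F2. Both F2 lay above every F1, by 1.73-fold in the means of the log2 ratios. The highest F1 ratio (replicate 2) was 0.78 times the lowest F2 ratio (replicate 1). This gap was smaller than the TIE1 spot error on those arrays, 39.7% and 31.2% of the signal. The F1 themselves spanned 1.48-fold. The ratio was not tested.

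**Figure D2:**
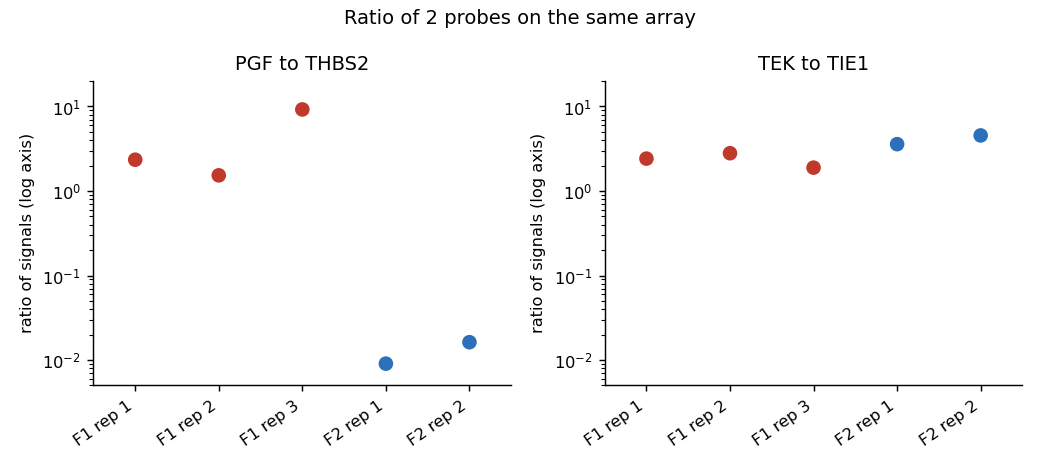
Ratio of the PGF to the THBS2 signal and of the TEK to the TIE1 signal on each array (log axis), in F1 (red) and F2 (blue). The PGF to THBS2 ratio is at least 1.53 in every F1 and at most 0.0162 in the F2, and the TEK to TIE1 ratio stays between 1.89 and 4.54.

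Further genes of these pathways came from lists of ligands, receptors, inhibitors and thrombospondin partners. Of 93 listed genes, 30 had a probe matched by a RefSeq accession and 20 were tested. Of these 20, 4 (PGF, THBS2, THBS1 and the integrin subunit ITGAV) passed the test, 1 with greater signal in F1 and 3 in F2, against 11.5% of all tested probes. Without PGF, THBS2, TEK and TIE1, 2 of 16 (12.5%) passed, a share near that of all probes. Other genes of the lists, such as VEGFA and its receptors FLT1 and KDR and the angiopoietins, were not analysed here, as no probe carried a matching accession. The same holds for ADAMTS1, an inhibitor that is among the genes the study lists from these arrays, so it is missing from the counts of inhibitors. The median log2 difference of the 20 was -0.28, against 0.27 for all tested probes.

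Among the ligands, 3 were tested and PGF alone passed, although CCN2 passed too with normexp background correction (limma adjusted p = 0.00454). There limma gave all genes of the lists shown here the same standard error (0.32), and the CCN2 difference was not larger, at -1.14. CCN2, a matricellular growth factor, gave 1.05, 2.74 and 1.75 for the F1, against 2.82 and 5.83 for the F2, a log2 difference of -1.24 (limma adjusted p = 0.169). FGF1, a mitogen of endothelial cells, had a log2 difference of -0.11 (limma adjusted p = 0.861). The probes of apelin (APLN), endothelin 1 (EDN1), leptin (LEP) and CXCL8 were not well above background on any array.

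Among the receptors, none of the 4 tested passed. Besides TEK and TIE1 these were FGFR3, a fibroblast growth factor receptor, with a log2 difference of 0.38 (limma adjusted p = 0.584), and EDNRA, an endothelin receptor, with -0.14 (limma adjusted p = 0.815). The 4 receptors had a median log2 difference of 0.04.

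Among the inhibitors, 7 were tested, 6 had a greater mean in the F2 and 2 passed, both thrombospondins and both in favour of F2. Of all 5528 tested probes, 1876 had a greater mean in the F2 and 5.08% passed in favour of F2. THBS2, 1 of the 2, is in a list chosen from these arrays. THBS1, the relative of THBS2 with similar action on vessels, gave 2.59 and 4.31 for the F2, against 0.404, 0.986 and 0.454 for the F1. These did not overlap, and the log2 difference was -2.56 (standard error 0.48, limma adjusted p = 0.0214), or 5.91-fold. This call was lost without F1 replicate 1 (limma adjusted p = 0.0632), F1 replicate 3 (0.0645), F2 replicate 1 (0.176) or F2 replicate 2 (0.162), and without the filter (0.149). TIMP3, a matrix-bound metalloproteinase inhibitor that also blocks endothelial growth factor signalling, had a log2 difference of -1.05 (limma adjusted p = 0.143). TIMP2, a soluble relative, was the only inhibitor with a greater mean in the F1, with a log2 difference of 1.01 (limma adjusted p = 0.0909). It passed with normexp background correction (limma adjusted p = 0.0244), where its difference was 0.96 with that common standard error of 0.32. It also passed with an intensity trend (limma adjusted p = 0.0436). SPARC, a matricellular protein, had -0.50 (limma adjusted p = 0.308), with its spot saturated on 1 F1 and 1 F2 array.

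Among the thrombospondins and their partners, 8 were tested and 3 passed, all with greater signal in the F2, against 5.08% of all tested probes. THBS1 and THBS2 are among these 3. ITGAV, the alpha subunit of integrins that bind thrombospondins, gave 11 and 12.3 for the F2, against 1.43, 1.85 and 0.979 for the F1. The log2 difference was -3.09 (standard error 0.35, limma adjusted p = 0.00386), or 8.49-fold. Leaving out F2 replicate 1 or 2 raised its limma adjusted p to 0.0948 or 0.0637, and dropping the filter to 0.0532. CD36 and CD47, both cell surface receptors of thrombospondins, had log2 differences of 0.97 (limma adjusted p = 0.295) and 0.56 (limma adjusted p = 0.354). VLDLR, a lipoprotein receptor that binds thrombospondins, had -0.79 (limma adjusted p = 0.222).

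**Figure D3:**
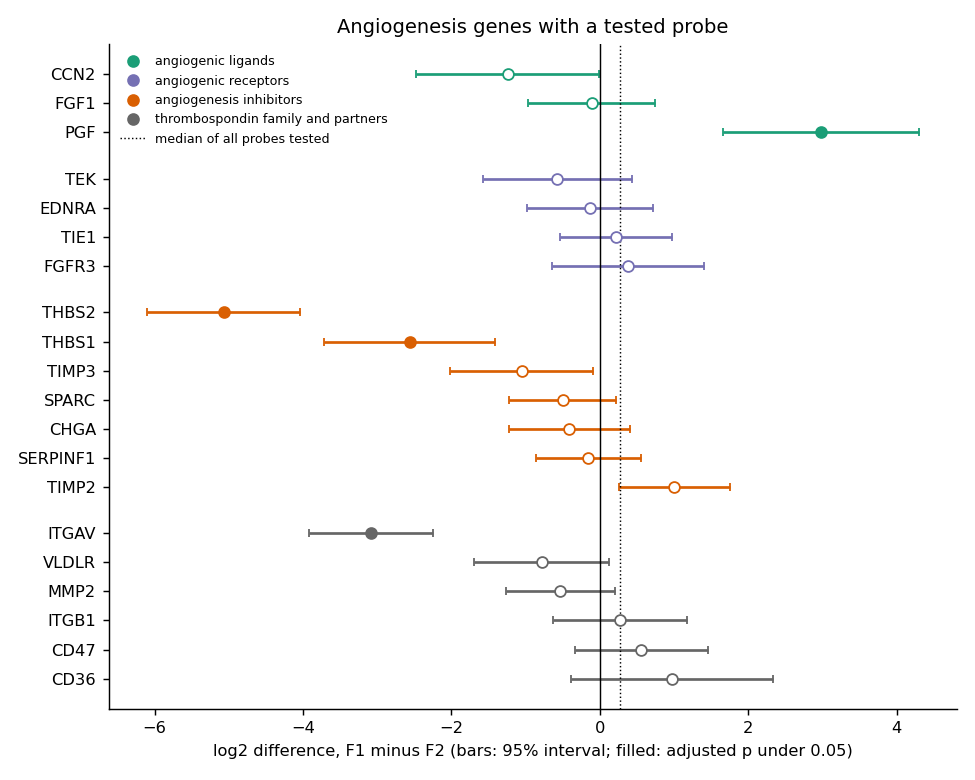
Log2 difference F1 minus F2 of the 20 tested genes, with 95% intervals from limma, coloured by list (a gene of several lists is drawn in the first). Filled points had an adjusted p under 0.05 and the dotted line is the median of all tested probes at 0.27. PGF alone lies far to the F1 side, and THBS2, ITGAV and THBS1 lie far to the F2 side.

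Signal in favour of vessel growth was set against signal opposing it in each follicle as the mean centred log2 value of 7 ligands and receptors minus that of 7 inhibitors. This balance was 0.54, 0.45 and 0.76 for F1 replicates 1 to 3, against -1.22 and -0.54 for F2 replicates 1 and 2, so the groups were separate. Without PGF and THBS2, it was 0.17, 0.17 and 0.10 for the F1, against -0.55 and 0.10 for the F2, so the groups overlapped by F2 replicate 2. Without THBS1 as well, it was -0.05, 0.12 and -0.09 for the F1, against -0.39 and 0.41 for the F2, so the F2 lay on both sides of the F1. The balance was not tested.

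The wall holds several cell types, and in these bulk samples fewer cells of a type and less RNA per cell cannot be told apart. Endothelial markers other than TEK and TIE1 were measured with 10 probes, of which 7 were tested. SELP, an adhesion molecule of endothelial cells and platelets, passed with greater signal in the F2 (log2 difference -3.82, limma adjusted p = 0.00329). SELP is in a gene list that the study chose from these same arrays. The others did not pass. NOS3, the endothelial nitric oxide synthase, had 0.16 (limma adjusted p = 0.804) and CAV1, a caveolar protein, 0.72 (limma adjusted p = 0.22). PECAM1, a junction protein, had -0.89 (limma adjusted p = 0.282) and CD34 -1.49 (limma adjusted p = 0.112). PROCR had -1.02 (limma adjusted p = 0.136) and LYVE1 -0.71 (limma adjusted p = 0.253). Of the 7 tested, 5 had a greater mean in the F2, as did 1876 of all 5528 tested probes. The median log2 difference of the 7 was -0.89, against 0.27 for all tested probes. CDH5, the defining cadherin of endothelial junctions, was not well above background on any array, nor were SELE and EDN1. PECAM1 was well above background on 1 of the 3 F1 arrays and on both F2 arrays. It therefore entered the test only through the F2, where it is 1 of the 5 with a greater mean. Its own difference is the median of the 7. The summed signal of the 10 probes, which weights bright probes most, ranged from 0.961 to 1.36 among the F1, against 1.74 to 2.64 among the F2. Without SELP, the sum ranged from 0.917 to 1.28 among the F1, against 1.10 to 1.77 among the F2, and the groups overlapped.

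Markers of other cell types also differed between the groups. All 7 granulosa markers with a probe matched by a RefSeq accession passed with greater signal in the F1, against 6.39% of all tested probes. HSD17B1, a further granulosa marker that the study lists from these arrays, had no such match and is missing here. Of the 7, all but INHBB belong to a list that the study chose from these same arrays for large differences, so their direction is not independent evidence. FSHR and INHBB were well above background on no F2 array and entered the test only through the F1. CYP19A1, the aromatase gene, was well above background on only 1 F2 array and also entered only through the F1. Its F2 signals were 0.0065 and 0.0279. The summed signal of the 7 ranged from 173.0 to 237.6 among the F1, against 6.84 to 6.87 among the F2. The F1 sums are lower bounds, since INHA and INHBA were saturated on all 3 F1 arrays and FST on 2 of them. Of 7 theca markers, 4 passed, all in favour of F1, against 6.39% of all tested probes. LHCGR, 1 of the 4, was well above background on no F2 array and entered the test only through the F1. Its F1 signals were 0.0329, 0.0335 and 0.0352, against 0.0232, 0.03 and 0.018 for the brightest negative controls of those arrays. CYP17A1, another, belongs to the same list of the study. The summed theca signal was 69.5 to 105.3 among the F1 (INSL3 saturated on 2 arrays), against 30.2 to 33.4 among the F2. STAR, the cholesterol transporter of steroidogenesis, went towards F2 with a log2 difference of -1.48 (limma adjusted p = 0.0593). CALD1, a smooth muscle protein, was the only pericyte and smooth muscle marker with a probe matched by a RefSeq accession. It passed in favour of F2 at 0.163 to 0.248 among the F1, against 0.753 to 0.759 among the F2 (3.80-fold, limma adjusted p = 0.0116). Another probe, which the study names as smooth muscle caldesmon, is in its list of genes higher in the F2 and was not matched to a symbol here. The direction of CALD1 is therefore not independent evidence. Of 4 leukocyte markers, 3 passed, all in favour of F2, against 5.08% of all tested probes. CD3E, 1 of the 3, was well above background on no F1 array and entered the test only through the F2. Its F2 signals were 0.0337 and 0.0242, against 0.0171 and 0.0212 for the brightest negative controls of those arrays. The summed leukocyte signal was 0.0807 to 0.12 among the F1, against 0.346 to 0.358 among the F2. Of 5 fibroblast and matrix markers, 1 passed, in favour of F2, against 5.08% of all tested probes. Their summed signal was 7.94 to 13.0 among the F1, against 13.2 to 21.3 among the F2. The part of these cell types in the differences of PGF, THBS2, THBS1 and ITGAV was not tested.

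The named genes whose centred log2 profile over the 5 follicles lay closest to that of each gene were taken from 735 other probes with a symbol that were well above background on all arrays. For PGF these were UPK1B, a uroplakin, at a root mean square distance of 0.28, HIF1A, the oxygen-regulated transcription factor subunit, at 0.37, and AMH, the granulosa hormone, at 0.45. HIF1A gave 2.61, 2.1 and 3.21 for the F1, against 0.277 and 0.496 for the F2. Like PGF, all of them were highest in F1 replicate 3 and lowest in F2 replicate 1. For THBS2 they were CRYAB, a small heat shock protein, at 0.47, SELP at 0.65, and TIMP1, a metalloproteinase inhibitor, at 0.66. The distance grows with the size of the change, so distances are not compared between the 4 genes.

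For TEK they were INPP1, an inositol phosphatase, at 0.08, PPP1R16B, a regulatory subunit of protein phosphatase 1, at 0.14, and IGF2R, the receptor that clears insulin-like growth factor 2, at 0.15. INPP1 gave 0.156, 0.244 and 0.132 for the F1, against 0.183 and 0.317 for the F2, in the same order of follicles as TEK. For TIE1 they were COX7A1 and SDHD, which encode subunits of the respiratory chain, at 0.09 and 0.09, and CALCOCO2, an autophagy receptor, at 0.10. With 5 follicles and profiles that include the difference between F1 and F2, these distances are a description only.

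**Figure D4:**
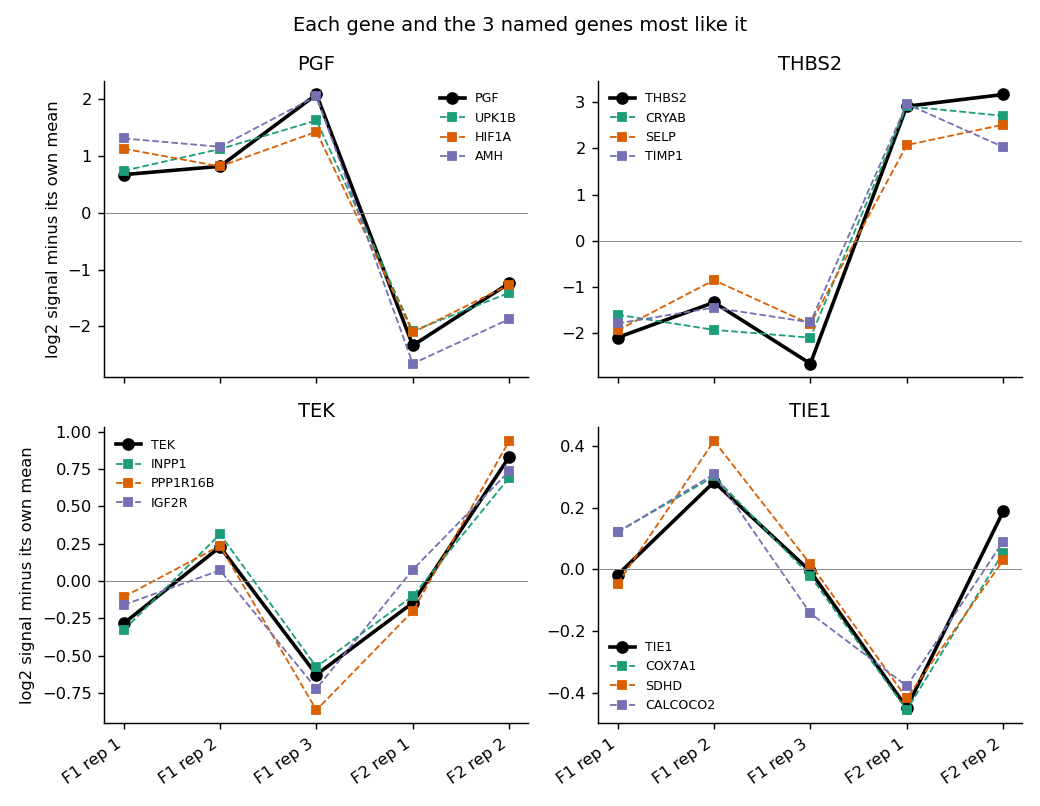
Log2 signal minus its own mean over the 5 follicles for each of the 4 genes (black) and the 3 named genes closest to it (dashed), with lines only to guide the eye. PGF and its closest genes peak in F1 replicate 3, THBS2 and its closest genes are high in both F2, and the TEK and TIE1 panels span a much smaller range.

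**Figure D5:**
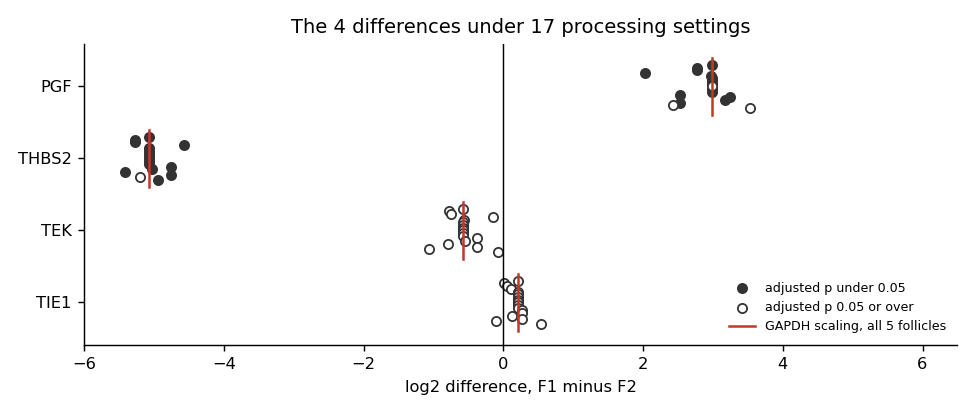
Log2 difference F1 minus F2 of each gene under 17 settings of scaling, background, floor, filter, spread estimate, replicate block and left-out follicle. Filled points had a limma adjusted p under 0.05 and the red line is GAPDH scaling with all 5 follicles. PGF ranges from 2.03 to 3.53 and THBS2 from -5.42 to -4.57, TEK ranges from -1.06 to -0.08 and TIE1 from -0.10 to 0.53, and TEK and TIE1 pass under none of the 17.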

How the data were processed

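The authors scanned each single-color array and extracted spot intensities with Feature Extraction, and the deposited files hold a background-subtracted processed signal intensity, its error, the raw mean and local background, and flags. A further table deposited by the authors gives the processed signal as a ratio to the GAPDH median of that array, with spots that failed their flags left empty. Processed signals were divided by the median of the 100 GAPDH spots, raised to 0.001 of it where lower, and taken to log2. Controls were dropped, as was 1 spot flagged as an outlier. Of 10163 probes, the 5528 that were well above background on all arrays of the F1, of the F2 or of both were fitted with limma 3.58.1 in R 4.3.3 (lmFit and eBayes, no block), which treats the follicles as independent, and p-values were adjusted by Benjamini-Hochberg over all of them. The number of arrays limits the precision. The fit was tested on simulated data. All arrays were scanned on the same day, each on its own slide, so neither could serve as a block.

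A symbol was found for 1364 of the 1415 probes that carry a RefSeq accession (RefSeq gene table of ARS-UCD2.0, for naming only). The genes named were the 4 members, every list gene that passed the test, and up to 3 others per list with the largest difference, and for each member the 3 named probes with the closest profile. Others were named after their values were seen: the probes below background, and genes of the marker lists. The latter were SELP, NOS3, PECAM1, CD34, PROCR, LYVE1, CAV1, CDH5, SELE, INHA, INHBA, INHBB, FSHR, FST, CYP19A1, CYP17A1, INSL3, LHCGR, STAR, CALD1 and CD3E. No gene of the lists had more than 1 probe matched by a RefSeq accession. The members and lists were chosen with earlier results of these data known. The alternatives were 75th percentile or quantile scaling, normexp with an offset of 50, the authors' ratio table, a floor of 0.01 or at the lowest signal well above background, other filters, an intensity trend, no saturated probes, a replicate block, and each follicle left out.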

Additional observations from a re-analysis of the deposited data

How the results depend on the processing

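PGF stayed greater in the F1 and THBS2 and TEK in the F2 under all 16 alternatives, and TEK and TIE1 passed the test in none. The floors, filters, intensity trend and removal of saturated probes leave the values of these genes as they are. Their differences could not move in those settings, and only the adjusted p could. PGF did not pass without a filter (log2 difference 2.98, limma adjusted p = 0.155). Over the fits that leave out 1 follicle, the difference was 2.43 to 3.53 for PGF, -5.42 to -4.75 for THBS2, -1.06 to -0.08 for TEK and -0.10 to 0.53 for TIE1. PGF lost its call without F2 replicate 1 (2.43) and F2 replicate 2 (3.53), THBS2 without F2 replicate 1 (-5.20), and TIE1 turned to -0.10 without F2 replicate 1. For TEK the limma adjusted p ranged from 0.12 (quantile scaling) to 0.917 (without F2 replicate 2).

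The difference of the PGF to THBS2 log2 ratio was 6.60 with normexp, where the offset compresses weak signals, and 7.29 to 8.58 with a follicle left out. In place of 4 list genes, 1 passed without a filter (THBS2), 6 with normexp (the 4 plus CCN2 and TIMP2), 5 with an intensity trend (the 4 plus TIMP2), and 1 to 5 with a follicle left out. Of the list genes, CNMD passed without F2 replicate 1 and none of the 4 did, while THBS2 passed without F2 replicate 2. CNMD was well above background on F2 replicate 2 only, at 0.0236 against 0.0212 for the brightest negative control there. It entered that fit only through this array, and its F1 signals were negative and raised to the floor. Without a filter 214 of all probes passed in place of 634, and 160 to 550 with a follicle left out, the lowest without F2 replicate 1 (160), F2 replicate 2 (200) and F1 replicate 1 (344). With a single F2 left, it is taken to vary like the F1. Of 12 other genes, FGF1 turned to 0.0834 with normexp, and with a follicle left out it ranged from -0.37 to 0.11 (without F1 replicate 1) and EDNRA from -0.48 to 0.21 (without F2 replicate 2, and 0.04 without F1 replicate 1). The cause of these changes was not tested.

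With the replicate number as a block, PGF had 2.53 (limma adjusted p = 0.0258), THBS2 -4.75 (0.0038), TEK -0.37 and TIE1 0.26, and the block changed no call of the 4 genes. F1 replicate 3 has no F2 of its number, so the block takes it out of the difference, and the values equal those without it. The numbers are not known to pair follicles, and deviations from the group means correlated at 0.039 for number 1 and 0.13 for number 2. None of the 4 genes had another probe matched by a RefSeq accession to try. The dim signal of TIE1 limits what can be seen of it.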
